A study of Bos taurus with 22 samples.

Results

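The genes described here mark macrophages and dendritic cells, the phagocytes that sample antigen and clear dying cells beneath the intestinal epithelium. They were chosen by symbol: C1QA, C1QB, C1QC, CSF1R, CD68, CD163, MRC1, FLT3, XCR1 and ITGAX. Of these 10 symbols, 9 were found among the 27570 genes of the count table, and ITGAX was not found by symbol and is not described further. RNA of scraped jejunal mucosa was sequenced from 22 Holstein steers, 10 to 12 months of age, each contributing 1 library. All steers carried an abomasal catheter and received raw corn starch by this route for 7 d, at a daily 3.94 g/kg of body weight. The control steers (n = 5) were infused with water and injected subcutaneously with the vehicle, bovine serum albumin (BSA) in saline. The GLP-2 steers (n = 5) were infused with water and injected with glucagon-like peptide 2 (100 µg/kg of body weight daily), an intestinal growth hormone. The casein steers (n = 6) were infused with sodium caseinate (1.30 g/kg of body weight daily) and injected with BSA, and the casein + GLP-2 steers (n = 6) received both sodium caseinate and GLP-2. BSA below stands for the control and casein steers together (n = 11), and water for the control and GLP-2 steers (n = 10).

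Intestinal macrophages are renewed from blood monocytes and depend on signals through the CSF1 receptor, whereas dendritic cells develop from bone marrow precursors under FLT3 ligand. C1q, which starts the classical complement pathway and coats apoptotic cells for removal, is unusual among complement proteins in being made mainly by macrophages and dendritic cells rather than by the liver. Scavenger and lectin receptors such as CD163 and MRC1 take up hemoglobin complexes and glycoproteins and are prominent on resident tissue macrophages.

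Library totals ranged from 8809666 to 28447810 counts, with a median of 12028560.5. Each member was counted in every steer except XCR1, which had 0 counts in casein replicate 3. The median count per library was between 4174.5 and 4959 for the 3 C1q genes, 1548 for CSF1R, 816 for CD68, 447.5 for FLT3, 224.5 for MRC1, 97 for CD163 and 58.5 for XCR1, so the last 2 rest on the fewest reads. Some steers stood apart. In a B cell follicle score (mean log2 CPM of 20 genes, where CPM is the count relative to the normalized library total) 4 BSA steers, control replicates 1, 3 and 5 and casein replicate 3, lay between 5.87 and 6.75, and the other 18 steers between 0.82 and 3.62. The columns of 5 BSA steers, control replicates 3 and 5 and casein replicates 1, 3 and 5, stood last in the deposited count table, out of the animal order of the other 17.

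Levels of the members were compared with each other per length, as the deposited FPKM. The 3 chains of C1q were by far the most abundant members. Median FPKM over 22 steers was 331 for C1QC, 270 for C1QB and 210 for C1QA, and the lowest of these medians exceeded the median FPKM of 97.5% of the 15086 genes that passed the filter of the 4-treatment model. CD68, a lysosomal glycoprotein of phagocytes, had a median of 49.6 FPKM, and CSF1R, the receptor tyrosine kinase for CSF1 and IL34, had 32.1 FPKM. FLT3, the receptor for FLT3 ligand on dendritic cells and their precursors, had 12.6 FPKM. The chemokine receptor XCR1 of cross-presenting dendritic cells (4.33 FPKM), the mannose receptor MRC1 (4.18 FPKM) and the hemoglobin scavenger receptor CD163 (2.28 FPKM) were lowest. Within steers the order was largely kept. C1QC exceeded C1QB in 19 of 22 steers, MRC1 exceeded CD163 in 18, and FLT3 exceeded XCR1 in 21. C1QB exceeded C1QA, C1QA exceeded CD68, CD68 exceeded CSF1R and CSF1R exceeded FLT3 in all 22. XCR1 and MRC1 had no order, since XCR1 was above MRC1 in 11 of 22 steers. The gene length was 1002 bases for XCR1 and 4645 bases for MRC1. The study reports that RNA integrity varied between samples, and whether it shifted FPKM between genes of unlike length was not tested.

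The C1q chains moved together from steer to steer. C1QA, C1QB and C1QC lie side by side on the minus strand of chromosome 2 of ARS-UCD1.2, with C1QB at positions 130166509 to 130173608, C1QC at 130181311 to 130185682 and C1QA at 130189849 to 130193588. The SD over steers of the log2 ratio between any pair of them was between 0.25 and 0.28, against SDs of 0.49 to 0.58 for the log2 CPM of each chain alone. The log2 ratio of CSF1R to CD68 had an SD of 0.31. The corresponding SD was 0.52 for CSF1R to C1QB and 0.91 for C1QA to MRC1, more than for either gene alone (0.56 and 0.81). Of 15085 genes ranked by Spearman's rho of log2 CPM with C1QB over 22 steers, C1QA (rho = 0.875) and C1QC (0.872) came first and second, and CD68 was first for CSF1R (0.813). The 5 genes outside the members most like C1QB were PARM1 (0.857), CD209 (0.854), CST3 (0.848), TGFBI (0.836) and SPI1 (0.822). Of these, CD209 encodes a lectin of macrophages and dendritic cells, and SPI1 a transcription factor of myeloid and B cells. Those most like CSF1R were GRN (0.807), the C5a receptor gene C5AR1 (0.799), the MHC class II gene BOLA-DRA (0.784), FGL2 (0.780) and CMKLR1 (0.765). The points share libraries, depth and the same 4 treatments, and these rho values are a description of these 22 steers.

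A single steer was the highest of 22 for every member. In casein + GLP-2 replicate 5, CPM was 774 for C1QA, 675 for C1QB and 734 for C1QC. It was 246 for CSF1R, 141 for CD68, 18.2 for CD163 and 52.2 for MRC1 in this steer. FLT3 was at 86.2 CPM and XCR1 at 12.4 CPM. The same steer was highest in 11 of 25 other monocyte and macrophage genes and in 5 of 19 other dendritic cell genes, against 331 of 15086 genes in all (2.19%). Its summary scores of those macrophage and dendritic cell lists were the highest of 22 as well (5.48 and 4.89 log2 CPM). Its B cell follicle, leukocyte and enterocyte scores (2.67, 8.001 and 9.89) lay within the range of the other steers. Among GLP-2-injected steers alone, its follicle and leukocyte scores were also the highest. The next were 1.81 in GLP-2 replicate 1 and 7.91 in casein + GLP-2 replicate 6, respectively. Casein replicate 3 was the lowest of 22 for CD163, MRC1 and XCR1, control replicate 2 for the 3 C1q chains, casein replicate 1 for CSF1R and CD68, and control replicate 5 for FLT3. Of all genes, these steers were the lowest for 11.2%, 4.42%, 14.2% and 10.1%, respectively.

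**Figure D1:**
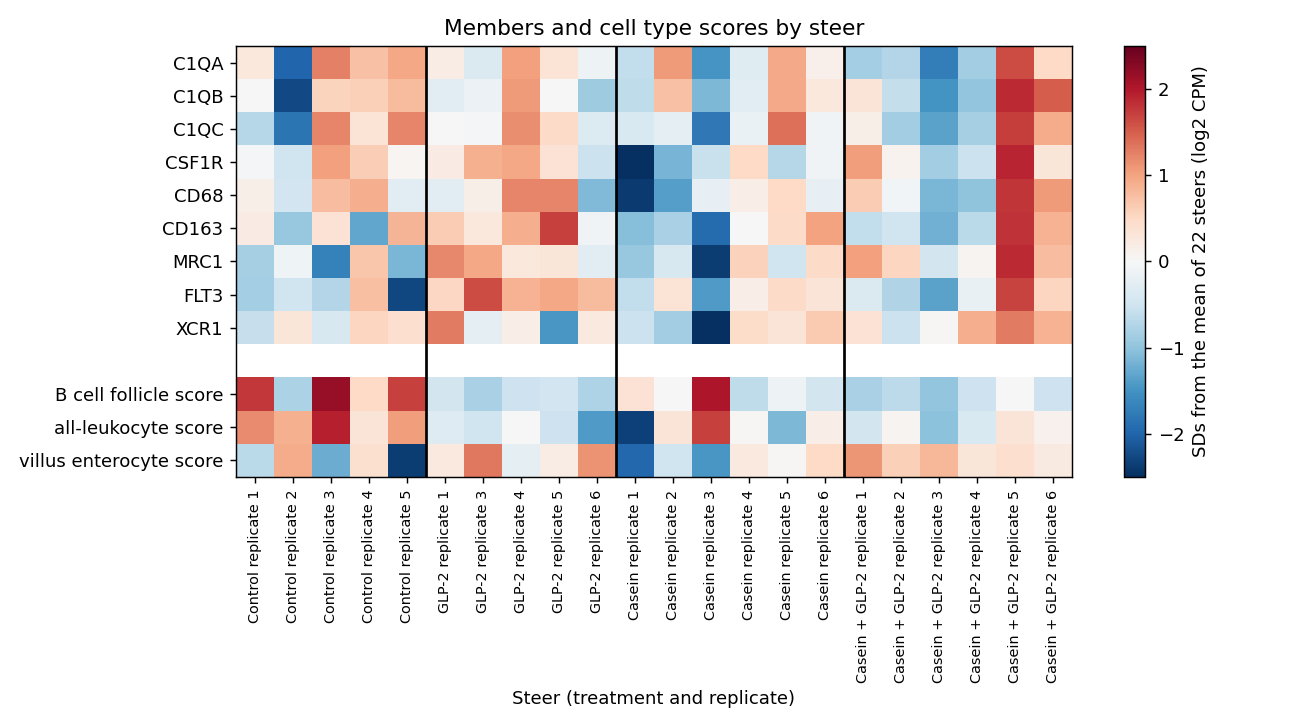
Each cell shows, for 1 steer (columns, grouped by treatment) and 1 member or cell type score (lines), the distance of log2 CPM from the mean of 22 steers in SDs, from blue (below) to red (above). Casein + GLP-2 replicate 5 is red for all 9 members, the C1q chains share their pattern, and control replicates 1, 3 and 5 and casein replicate 3 carry the highest B cell follicle scores (5.87 to 6.75).

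The main effect of GLP-2 was assessed by comparing 11 GLP-2 steers with 11 BSA steers. Only MRC1 was called, at 1.81 times its level with BSA, and this call was near the threshold, as described below. The 3 C1q chains, CSF1R, CD68, CD163, FLT3 and XCR1 did not pass the adjusted threshold of 0.05 in edgeR's quasi-likelihood test. So 1 of 9 members was called, against 13.5% of 13928 genes tested (5.13% higher and 8.37% lower with GLP-2), a share near the background. Without adjustment 2 members, MRC1 and FLT3, had p of at most 0.05, against 34.6% of all genes. Log2 fold changes were above 0 for 8 of 9 members, against 50.7% of all genes, with a median of 0.35 for the members and 0.0079 for all genes. The 9 members are not independent, since the C1q chains moved together and casein + GLP-2 replicate 5 was highest for every member. Without this steer the log2 fold change was -0.047 for C1QB and -0.036 for C1QC. As these are bulk samples, fewer cells of a type and less RNA per cell cannot be told apart.

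MRC1 (chromosome 13, 32239914 to 32352564) encodes the macrophage mannose receptor. Its CPM in the control steers was 11.2, 17.03, 6.90, 26.7 and 9.46, and in the GLP-2 steers 35.5, 31.4, 21.0, 21.4 and 15.4. The casein steers ranged from 4.68 to 24.9 (median 14.02), and the casein + GLP-2 steers from 13.98 to 52.2 (median 26.1). Each of the 11 GLP-2-injected steers was above the median of the BSA steers, and 5 of them were above the highest BSA steer, so the groups overlapped. The means were 26.7 ± 10.9 CPM (SD, n = 11) with GLP-2 and 14.8 ± 7.44 with BSA (n = 11), a log2 fold change of 0.85 (SE 0.27, 95% interval 0.29 to 1.41, adjusted p = 0.0420). The log2 fold change was 0.81 without casein and 0.88 with casein, and the interaction was 0.079 (95% interval -1.09 to 1.25).

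The call for MRC1 was near the threshold. It was lost in 15 of 22 fits that left out 1 steer, in which log2 fold changes ranged from 0.72 to 0.96 and adjusted p from 0.0237 to 0.0741. Without casein + GLP-2 replicate 5, the highest steer, it was 0.72 (adjusted p = 0.0698). With the replicate block as a term the log2 fold change was 0.98 and the adjusted p 0.0509, and edgeR then called 689 genes in all in place of 1881. In the 4 steers that stood apart in follicle score MRC1 was among the 5 lowest of 22. The call ended without these 4, at 0.51 on the log2 scale (adjusted p = 0.374), where 0 of 14285 genes were called. The 5 BSA steers in the last columns averaged 9.06 ± 3.45 CPM of MRC1 and the other 6 BSA steers 19.7 ± 6.32, and without those 5 the log2 fold change was 0.42 (adjusted p = 0.463, 0 of 14357 genes called).

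**Figure D2:**
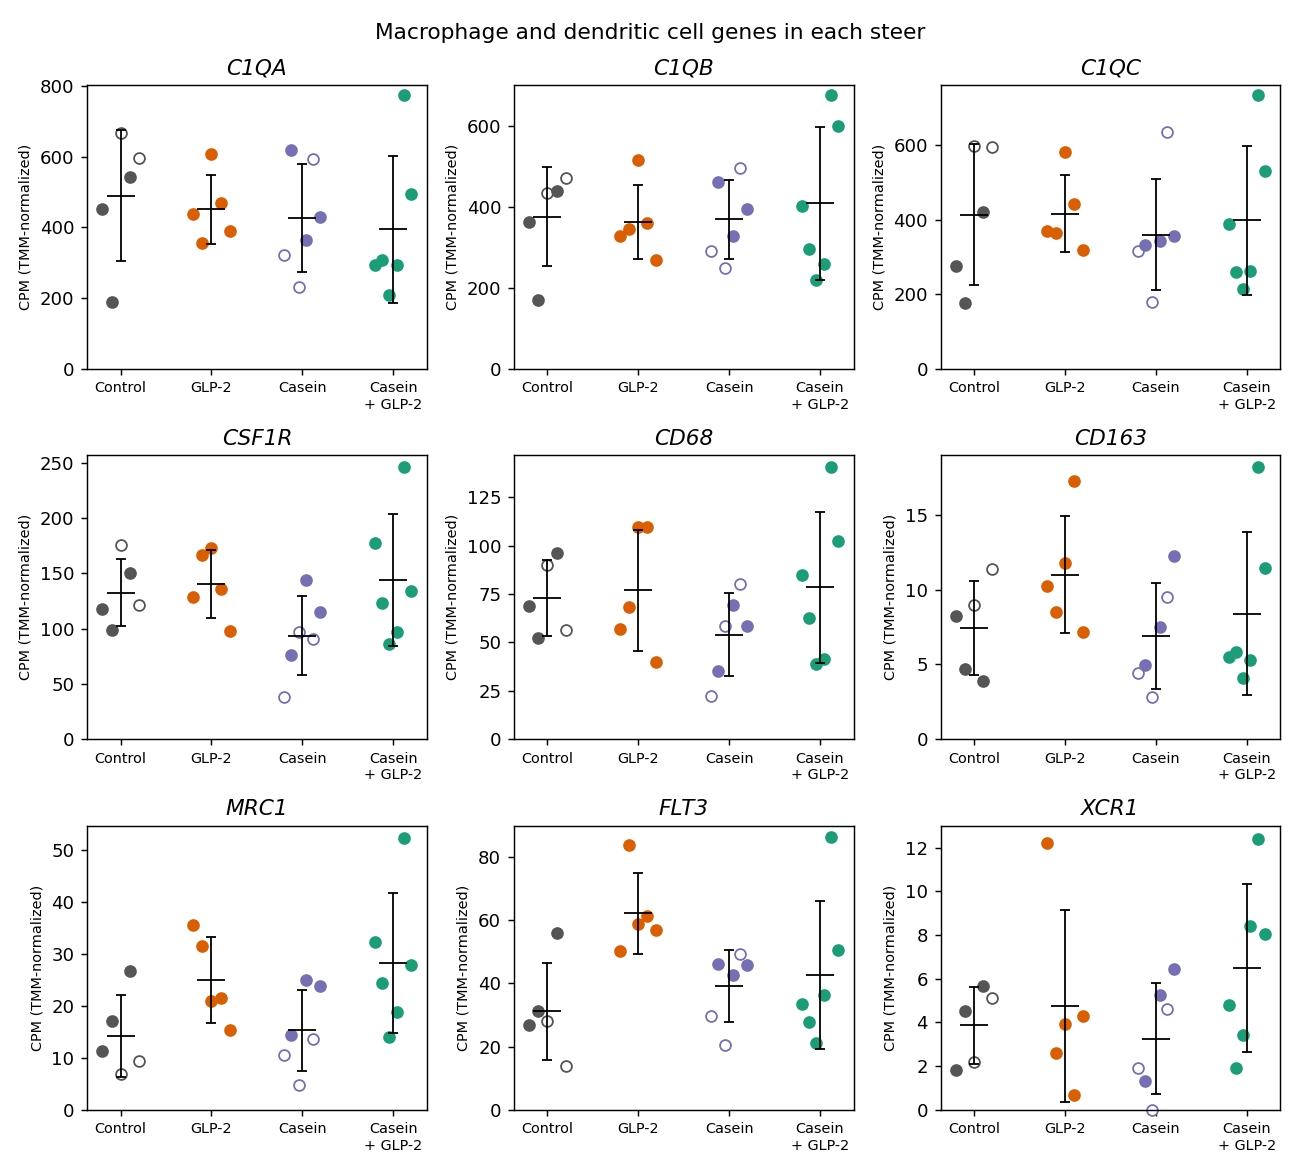
TMM-normalized CPM of each member (vertical axes, linear, starting at 0) in each steer by treatment, with the mean and SD as a bar and whiskers; open points mark the 5 BSA steers whose columns stood last in the count table. For MRC1 the open points average 9.06 CPM, and all 11 GLP-2-injected steers lie above 13.7 CPM, the median with BSA.

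FLT3 (chromosome 12, 31991150 to 32060002) was the member with the next smallest p. Its CPM was 26.7, 31.3, 28.2, 56.0 and 13.9 in the control steers and 50.1, 83.7, 58.7, 61.4 and 56.8 in the GLP-2 steers. With casein it ranged from 20.6 to 49.2 (median 44.3), and with casein + GLP-2 from 21.3 to 86.2 (median 34.8). Of the 5 GLP-2 steers, 4 were above the highest control steer, while the casein and casein + GLP-2 steers overlapped widely. GLP-2 and BSA means were 51.5 ± 21.1 and 35.5 ± 13.2 CPM (n = 11 each), a log2 fold change of 0.54 (SE 0.24, 95% interval 0.048 to 1.04) that did not pass the threshold (p = 0.0328 unadjusted, adjusted p = 0.113 in edgeR). Against control alone, the log2 fold change with GLP-2 was 0.99 (SE 0.35, 95% interval 0.27 to 1.72, adjusted p = 0.237 in edgeR). Casein + GLP-2 differed from casein by 0.13 (95% interval -0.53 to 0.78). The interaction was -0.87 (95% interval -1.84 to 0.11, adjusted p = 0.996), so a difference between these responses was not shown. FLT3 averaged 28.3 ± 13.3 CPM in the 5 BSA steers of the last columns, 41.5 ± 10.7 in the other 6 BSA steers and 51.5 with GLP-2. Without those 5 steers the log2 fold change of FLT3 between GLP-2 and BSA was 0.29, and without the 4 steers apart in follicle score, which ranked 1, 2, 4 and 6 from the lowest of 22, it was 0.25. It was 0.29 with the follicle score as a term and 0.21 with the enterocyte score.

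CSF1R (chromosome 7, 61380054 to 61411558) was at 117, 98.5, 175, 151 and 121 CPM in the control steers and at 129, 167, 173, 136 and 97.5 CPM in the GLP-2 steers. It ranged from 38.6 to 144 CPM with casein (median 93.7) and from 86.0 to 246 with casein + GLP-2 (median 129). The casein steers were the lowest group and the other 3 groups lay together, with overlap throughout. The log2 fold change between GLP-2 and BSA was 0.35 (SE 0.21, 95% interval -0.079 to 0.79, adjusted p = 0.230). Casein + GLP-2 and casein differed by 0.62 (95% interval 0.056 to 1.19, adjusted p = 0.178 in edgeR), and GLP-2 and control by 0.083 (95% interval -0.53 to 0.70). The interaction was 0.54 (95% interval -0.30 to 1.37).

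CD68 (chromosome 19, 27312058 to 27314128) ranged from 38.9 to 141 CPM with GLP-2 and from 22.5 to 96.0 with BSA, with a log2 fold change of 0.31 (95% interval -0.19 to 0.82). CD163 (chromosome 5, 101786078 to 101818046) ranged from 4.12 to 18.2 CPM with GLP-2 and from 2.84 to 12.2 with BSA, with a log2 fold change of 0.42 (95% interval -0.17 to 1.00). XCR1 (chromosome 22, 53319181 to 53320182) ranged from 0.679 to 12.4 CPM with GLP-2 and from 0 to 6.44 with BSA, where the 0 of casein replicate 3 allows a level of up to 0.178 CPM. Its log2 fold change of 0.68 had the widest interval of the members, -0.36 to 1.72, and was 0.41 without the 4 steers apart in follicle score and 0.42 without the 5 last-column steers. The 3 genes overlapped between GLP-2 and BSA over most of their range, and their adjusted p was between 0.297 and 0.370.

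None of the C1q chains passed the threshold between GLP-2 and BSA, and their group means lay close together. C1QB was at 362, 169, 433, 440 and 471 CPM in the control steers and at 327, 344, 514, 360 and 267 CPM in the GLP-2 steers. The casein steers ranged from 248 to 495 CPM (median 361) and the casein + GLP-2 steers from 218 to 675 (median 348). Except for the low value of control replicate 2, the control steers lay within the range of the GLP-2 steers. Log2 fold changes were 0.059 for C1QB (95% interval -0.36 to 0.48), 0.080 for C1QC (-0.41 to 0.57) and -0.12 for C1QA (-0.59 to 0.35), with adjusted p between 0.732 and 0.853. These intervals leave room for changes of up to 0.57 upward or 0.59 downward on the log2 scale. C1QC depended on which BSA steers entered. It averaged 465 ± 205 CPM in the 5 BSA steers of the last columns and 318 ± 83.0 in the other 6, and without those 5 its log2 fold change was 0.33 (adjusted p = 0.543 in edgeR). It was 0.14 without the 4 steers apart in follicle score, 0.33 with the follicle score as a term and 0.30 with the enterocyte score.

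**Figure D3:**
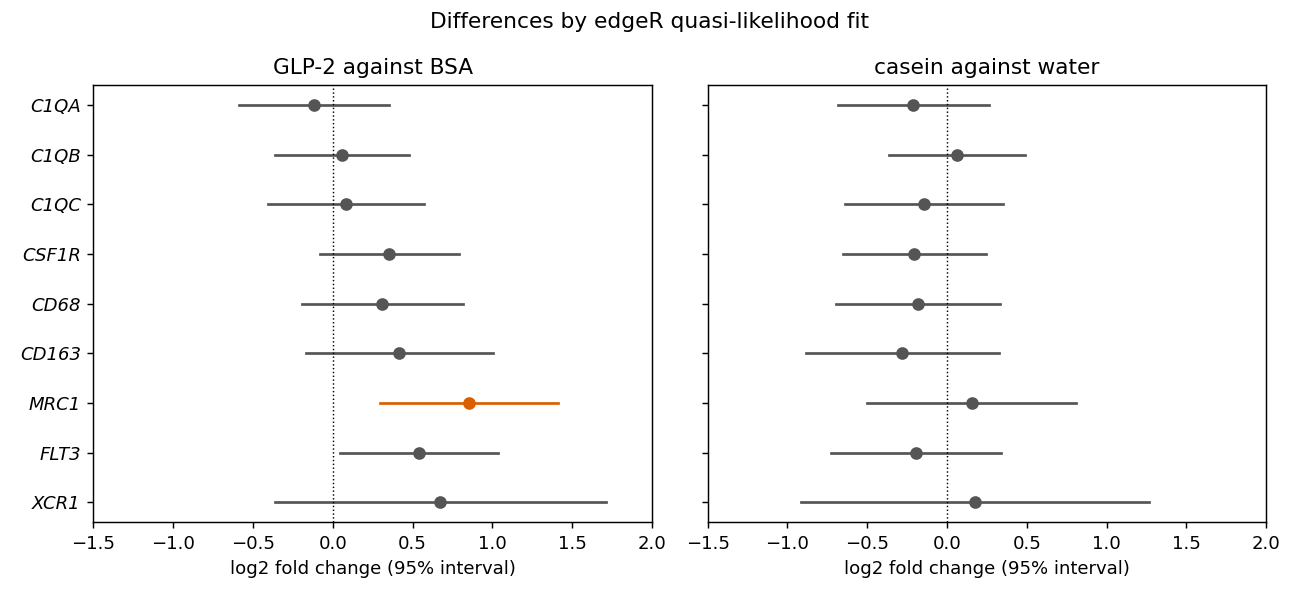
Log2 fold change of each member (points) with its 95% interval (lines) from edgeR's quasi-likelihood fit, for GLP-2 against BSA (left) and casein against water (right), with the called member in orange. MRC1 is the only member called in these comparisons, at 0.85 with GLP-2, and the intervals of all 9 members include 0 for casein.

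The main effect of casein was assessed by comparing 12 casein-infused steers with 10 water-infused steers. None of the members passed the adjusted threshold, the share of all 14096 genes tested that did so was 0%, and 0 members had an unadjusted p of at most 0.05, against 3.36% of all genes. A DESeq2 Wald test on the same genes also called 0 members, but the share of all genes it called is not given here. Log2 fold changes ranged from -0.28 (CD163, 95% interval -0.88 to 0.32) to 0.18 (XCR1, -0.92 to 1.27), with 3 of 9 above 0, against 50.7% of all genes, and a median of -0.18, against 0.0032 for all genes. CSF1R averaged 119 ± 53.6 CPM with casein and 137 ± 29.0 with water (log2 fold change -0.21, 95% interval -0.65 to 0.24). The C1q chains differed by -0.21 (C1QA), 0.064 (C1QB) and -0.14 (C1QC) on the log2 scale. The narrowest interval was that of C1QB (-0.36 to 0.49).

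In the model of 4 treatments, edgeR called 0 of 9 members between GLP-2 and control, casein + GLP-2 and casein, casein and control, and casein + GLP-2 and GLP-2, and 0 for the interaction. The share of 15086 genes called was 0% in each of these. DESeq2's Wald test also called 0 members in each, but the share of all genes it called is not given here. These contrasts share steers with each other and with the pooled comparisons. At an unadjusted p of at most 0.05 the members were FLT3 for GLP-2 against control (1 of 9, against 13.9% of all genes) and CSF1R and MRC1 for casein + GLP-2 against casein (2 of 9, against 24.1%). There were 0 for casein against control (5.66%), casein + GLP-2 against GLP-2 (2.64%) and the interaction (4.28%). Log2 fold changes were above 0 for 7 members with GLP-2 against control (52.6% of all genes), 8 with casein + GLP-2 against casein (48.1%), 2 with casein against control (51.4%), 5 with casein + GLP-2 against GLP-2 (48.6%) and 7 for the interaction (47.3%). Within BSA-injected steers the lowest log2 fold change of casein was that of CSF1R, -0.50 (95% interval -1.09 to 0.087), and within GLP-2-injected steers that of FLT3, -0.55 (95% interval -1.23 to 0.14).

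Other genes of the same cells were described from lists of known markers, by how many passed the threshold between GLP-2 and BSA beside the shares of all genes (5.13% higher and 8.37% lower). Among 23 tested genes of monocytes and macrophages, 2 increased and 0 decreased, with a median log2 fold change of 0.32. Log2 fold changes were above 0 for 17 of them and below 0 for 6, against 50.7% of all genes above 0. CD14 had the largest change in size, -0.98 (24.0 ± 10.5 CPM with GLP-2, 46.9 ± 32.4 with BSA, adjusted p = 0.0586 in edgeR). It was named after its values were seen. FCGR1A, the high-affinity IgG receptor, was at 22.01 ± 6.84 CPM with GLP-2 and 11.3 ± 4.94 with BSA (log2 fold change 0.97, adjusted p = 0.0229 in edgeR). Among 19 genes of dendritic cells, 0 increased and 2 decreased, with a median of -0.23. Log2 fold changes were above 0 for 6 of these dendritic cell genes and below 0 for 13, unlike those of the members FLT3 and XCR1, which were above 0. CCR7, a chemokine receptor of migrating dendritic cells that lymphocytes also carry, was at 3.01 ± 1.42 CPM with GLP-2 and 19.4 ± 24.8 with BSA (-2.72, adjusted p = 0.0202). FSCN1, an actin-bundling protein of mature dendritic cells, differed by -0.61 (adjusted p = 0.0478). Of 10 ligands, chemokines and partner receptors tested, 0 passed in edgeR. Unadjusted p was at most 0.05 for 3 of them, against 34.6% of all genes. FLT3LG, the ligand of FLT3, was at 27.2 ± 7.51 CPM with GLP-2 and 37.3 ± 10.5 with BSA (log2 fold change -0.46, adjusted p = 0.0557), and CSF2RB, a receptor chain for GM-CSF, at 36.5 ± 9.76 and 22.3 ± 12.2 (0.70, adjusted p = 0.0925).

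Beyond C1q, 20 complement genes were tested, of which 1 increased and 1 decreased (median -0.33). CD46, a membrane inhibitor of complement, had a log2 fold change of 0.89 (adjusted p = 0.0297), and the fluid-phase inhibitor and chaperone CLU one of -1.44 (adjusted p = 0.0386). C1R and C1S, the proteases that join C1q in the C1 complex, differed by -1.17 and -1.16 with adjusted p of 0.123 and 0.144, and were named after their values were seen. Among 13 genes of apoptotic cell clearance, the endocytic receptor LRP1 increased (0.80, adjusted p = 0.0239), the bridging protein MFGE8 decreased (-1.83, adjusted p = 0.0305), and the median was 0.092. For casein against water and for the interaction, 0 genes of any of these lists passed.

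Markers of other cell types moved with the same comparison. Of 18 B cell follicle genes tested, 16 decreased with GLP-2 and 0 increased (median -3.44), among them CXCL13 (-7.76), CR2 (-5.68), MS4A1 (-5.10) and CD79A (-3.40), whose adjusted p was 0.0171 each. The summed level of the follicle list was 147 to 218 CPM with GLP-2 and 168 to 3040 CPM with BSA. Of 17 villus enterocyte genes, 2 increased (LCT, 1.87, and SLC5A1, 1.58), 0 decreased and the median was 0.93, with sums of 26440 to 82642 CPM with GLP-2 and 3235 to 60783 with BSA. Among 8 genes of all leukocytes 3 decreased, ARHGDIB (-0.67), CD48 (-0.60) and CORO1A (-0.78), with a median of -0.41. Their sums ran from 2001 to 3689 CPM with GLP-2 and from 1863 to 5457 with BSA. No gene of these lists was at 0 in all steers.

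Without the 4 steers apart in follicle score, or without the 5 last-column steers, edgeR called 0 genes in all, so 0 of the listed genes passed. With the replicate block, 17 of the 32 called genes of these lists, those named next included, still passed. CCR7 (-1.82, adjusted p = 0.0698), FSCN1 (-0.46, 0.104), CLU (-1.47, 0.0652), LRP1 (0.72, 0.0522) and MFGE8 (-1.43, 0.0773) no longer did in edgeR. Nor did LCT (2.18, 0.0576), SLC5A1 (1.69, 0.0509), CD48 (-0.58, 0.0597) and CORO1A (-0.69, 0.0719). Of the 16 follicle genes 11 still passed, and FCGR1A (adjusted p = 0.0482) and CD46 (0.0494) did so narrowly.

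In each of the remaining lists 0 to 2 genes passed. Of 14 T cell genes 1 decreased (CD5, -0.58), and of 8 plasma cell genes 2 did (DERL3, -1.78, and TNFRSF17, -2.28). CD5, DERL3 and TNFRSF17 still passed with the replicate block (adjusted p = 0.0482 each in edgeR). In edgeR 0 of 6 granulocyte and mast cell genes passed, with CPA3 at 0.80 (adjusted p = 0.170) and HDC at 0.61 (0.376) on the log2 scale, and 0 of these had an unadjusted p of at most 0.05. Likewise 0 of 10 smooth muscle genes passed, with LMOD1 at -1.96 (adjusted p = 0.0748) and SMTN at -1.12 (0.0750), and 0 of 12 stromal and endothelial genes, with COL6A1 at -1.08 (0.173) and VWF at -1.19 (0.178). Unadjusted p was at most 0.05 for 4 smooth muscle genes and 0 stromal and endothelial genes, against 34.6% of all genes.

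**Figure D4:**
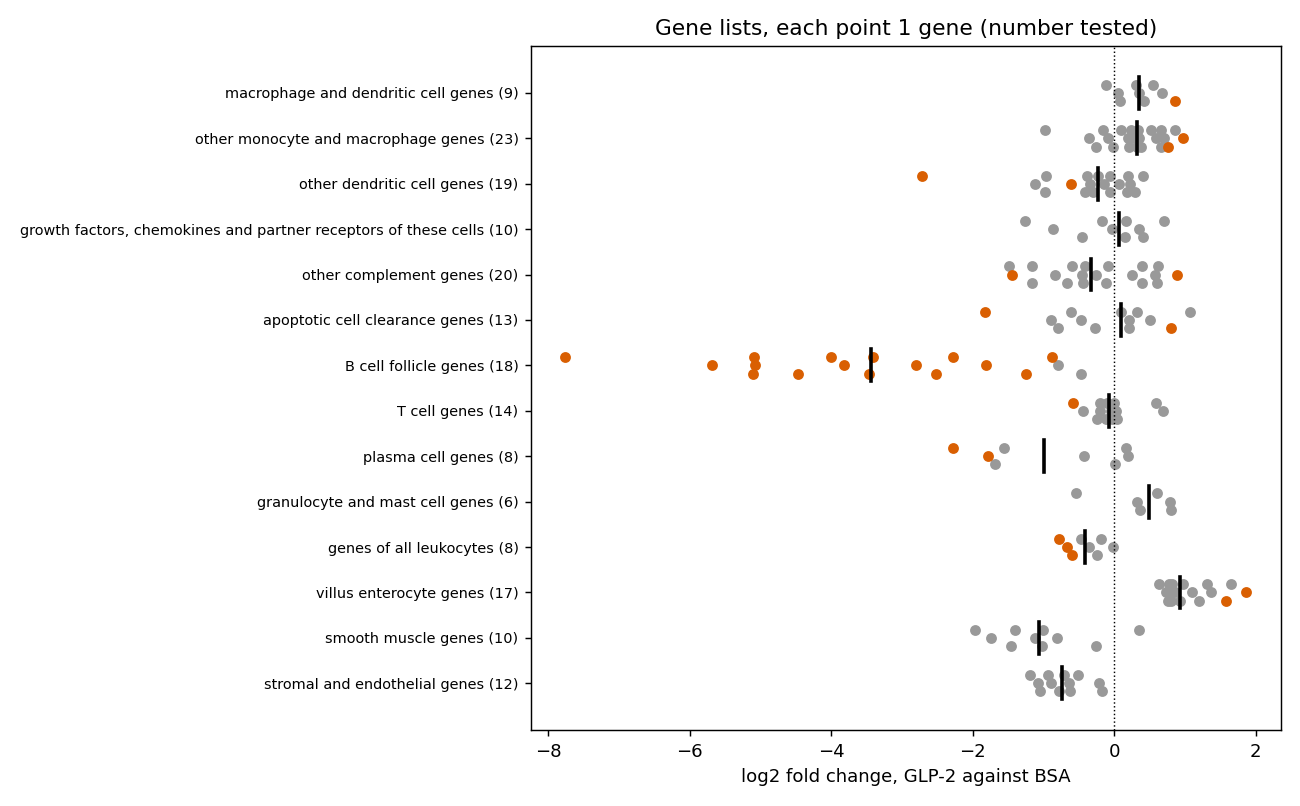
Log2 fold change of each tested gene (points) between GLP-2 and BSA by gene list, with called genes in orange and the list's median as a black bar. The members' median is 0.35 and that of the other monocyte and macrophage genes 0.32, whereas the dendritic cell list has a median of -0.23 and the B cell follicle list of -3.44.

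With a score as a term in the edgeR fit between GLP-2 and BSA, 0 genes were called in all. The genes of these scores themselves differed between GLP-2 and BSA. Median log2 fold changes were -3.44 for the follicle, 0.93 for the enterocyte and -0.41 for the leukocyte list. Such a fit therefore cannot separate the score from the injection. The log2 fold change of MRC1 was 0.48 with the follicle score as a term (adjusted p = 0.999), 0.46 with the villus enterocyte score (0.993) and 0.84 with the score of all leukocytes (0.113). That of CSF1R was 0.67 with the leukocyte score (adjusted p = 0.0775 in edgeR), against 0.35 without it.

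Members were then set against the follicle score within the 18 steers below the gap, since 4 steers stood apart from them. In these 18 steers 0 of 9 members passed at an adjusted p of at most 0.05 for Pearson's r (permutation test, 100000 resamples, adjusted over 15086 genes), against 21.7% of all genes. Unadjusted p was at most 0.05 for 1 member (39.7% of all genes), and r was above 0 for 4 members (49.4%). Spearman's rho passed for 1 member, C1QA, against 24.9% of all genes. C1QA had r = 0.578 (permutation p = 0.0120, adjusted p = 0.0528) and rho = 0.695 (p = 0.00190, adjusted p = 0.0175). C1QB had r = 0.458 (permutation p = 0.0568, adjusted p = 0.137) and rho = 0.517 (adjusted p = 0.0899). C1QC had r = 0.409 (permutation p = 0.0924, adjusted p = 0.190) and rho = 0.432 (adjusted p = 0.168). The other 6 members had r between -0.237 (CSF1R) and 0.238 (FLT3) and rho between -0.125 and 0.261, with permutation p of at least 0.293. MRC1 was among these, with r = -0.0853 (permutation p = 0.735, adjusted p = 0.815) and rho = -0.0630, although it was low in the 4 steers outside. Over all 22 steers, where the 4 form a cluster of their own, 2 of 9 members passed (MRC1 and FLT3), against 46.3% of all genes.

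The r of every member, the C1q chains included, was higher without the steers at the upper end of these scores. For CD163 it was 0.474 in place of -0.0630, and for FLT3 0.478 in place of 0.238. Without the 2 of the 18 farthest from their median score, control replicate 4 and casein replicate 1, r over 16 steers was 0.837 for C1QA (permutation p = 6.00e-05, adjusted p = 0.00787), 0.697 for C1QB (adjusted p = 0.0290) and 0.630 for C1QC (adjusted p = 0.0493). The share of all genes passing over these 16 steers is not at hand, so nothing particular to the C1q chains was shown. With treatment means removed, r over the 18 steers was 0.707 (permutation p = 0.0219, adjusted p = 0.0814), 0.606 (adjusted p = 0.158) and 0.599 (adjusted p = 0.147), respectively, and 19.9% of all genes passed.

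**Figure D5:**
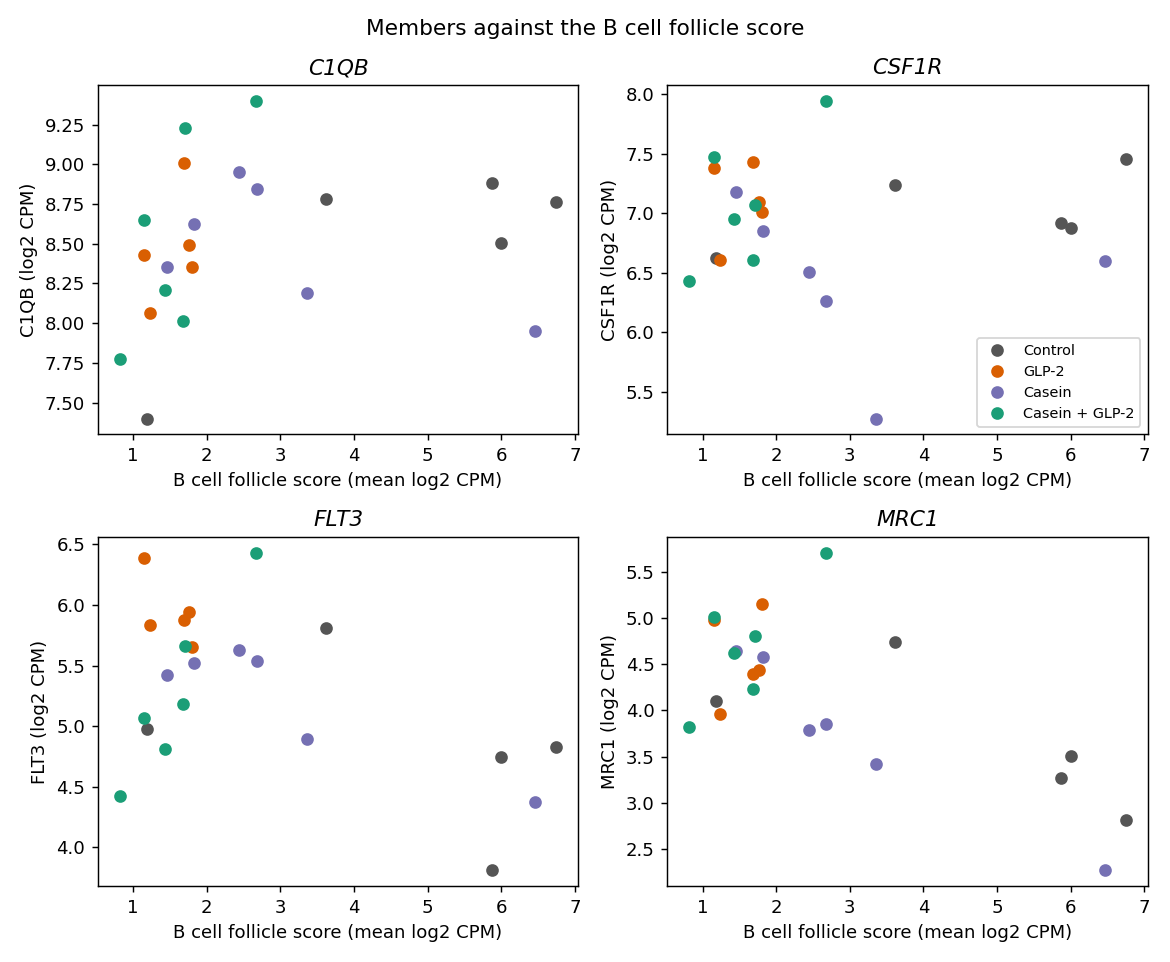
Log2 CPM of C1QB, CSF1R, FLT3 and MRC1 (vertical axes) against the B cell follicle score (horizontal axes, mean log2 CPM of 20 genes) in 22 steers, coloured by treatment. Among the 18 steers with scores up to 3.62, C1QB tends upward (r = 0.458) and MRC1 shows no slope (r = -0.0853), while the 4 steers from 5.87 upward hold low values of MRC1.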

How the data were processed

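The authors sequenced strand-specific, poly-A selected libraries, filtered reads with fastp, aligned them to ARS-UCD1.2 with HISAT2 2.0.5 and deposited raw read counts per gene from featureCounts 1.5.0-p3, with no normalization. The strand setting of the counting is not given in the sources used here. The authors also deposited FPKM, used here for levels between genes and, as log2(FPKM + 1), for an alternative in limma 3.58.1. Their submission notes also name StringTie 1.3.3b and DESeq2 1.20.

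Counts were analysed in R 4.3.3 with edgeR 4.0.16: filterByExpr (minimum count 10), TMM, the quasi-likelihood test, and Benjamini-Hochberg adjustment over all genes tested (threshold 0.05). Each main effect was tested by pooling over the other factor, as in the study (11 GLP-2 against 11 BSA steers, 12 casein against 10 water steers; 1 further GLP-2 steer of the study is not analysed here), and the 4 treatments were fitted in 1 model. CPM is TMM-normalized and log2 CPM has a prior count of 2. SEs were taken as the log2 fold change over the square root of F. Scripts were tested on simulated data. DESeq2 1.42.0 was an alternative. No libraries were identical (0 pairs).

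The members and lists were chosen with earlier results of these data known. Named genes were all members, the genes of each other list called in the GLP-2 main effect (at most 4 in each direction by p, or, where none passed, the 2 with the smallest p), and the 5 genes most like C1QB and the 5 most like CSF1R. The values of 1 called gene of the monocyte and macrophage list are not reported here. Replicate numbers are the study's 6 blocks of body weight, within which treatments were assigned. Residuals correlated by a mean of 0.033 over 30 pairs of the same block and -0.058 over 201 other pairs, so the block was an alternative. Correlations with the follicle score had been planned over all 22 steers, and were computed over 18 because 4 stood apart.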

Additional observations from a re-analysis of the deposited data

Results flagged for a closer look

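Among 36 groups of steers (9 members in 4 treatments) examined by Dixon's test, 1 had a steer far from the others, and chance gives about 1.8. C1QB in control replicate 2 was at 7.399 log2 CPM (169 CPM), and the next control steer was at 362 CPM. The same steer was the lowest of 22 for C1QA and C1QC too, at 188 and 178 CPM. Without it, the log2 fold change of C1QB between GLP-2 and BSA was -0.015 in place of 0.059.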

How the results depend on the processing

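Of the comparisons, only the call of 1 member between GLP-2 and BSA changed. It fell to 0 members with no filter on low counts, the replicate block, the follicle score, and, chosen after seeing the data, the villus enterocyte score, the score of all leukocytes, and leaving out the 5 steers of the last columns or the 4 steers apart in follicle score. It ranged from 0 to 1 when 1 steer was left out, and stayed at 1 with DESeq2's size factors, DESeq2's Wald test, limma on FPKM, the other factor as a term and a threshold of 0.1. In these 5 settings 1937, 2999, 2092, 1778 and 3633 of 13928 genes were called, respectively, against 1881 as reported. An unchanged count of 1 member therefore stands beside a background that moved. The replicate block changed no other call of a member, and 15 of the 32 called genes of the other lists lost their call with it. In the other comparisons of treatments, 0 members were called in all settings run.

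Directions of differences near 0 turned. Between GLP-2 and BSA, C1QA was 0.16 with the follicle score and 0.082 with the enterocyte score. Leaving out 1 steer gave C1QB between -0.047 and 0.12 and C1QC between -0.036 and 0.17. Between casein and water, XCR1 was -0.031 with the replicate block and -0.088 with the follicle score, and MRC1 was -0.067 with the latter. Without the last-column steers, CSF1R was 0.0013 and C1QC 0.048. Without the 4 steers apart in follicle score, C1QA was 0.010, C1QC 0.068 and MRC1 -0.032. Leaving out 1 steer gave C1QB between -0.039 and 0.14, MRC1 between -0.047 and 0.29, and XCR1 between -0.043 and 0.50.

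Members correlated with the follicle score numbered 0 over 18 steers, 3 without the 2 farthest of these, and 2 over all 22 as planned (MRC1 and FLT3, against 46.3% of genes). For the 3 members, the share of all genes passing in the same setting is not at hand. Without the 2 farthest, r turned to 0.0493 (CSF1R), 0.276 (CD68), 0.474 (CD163), 0.124 (MRC1) and 0.0934 (XCR1), and with treatment means removed to 0.184 (CD68), 0.176 (CD163), 0.172 (MRC1) and 0.0448 (XCR1). The cause of these changes was not tested. XCR1 and CD163 had the fewest counts (medians of 58.5 and 97 per library).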
